A study of Mus with 18 samples.

Results

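The striated-muscle myosin heavy chains examined here were Myh1, Myh2, Myh3, Myh4, Myh6, Myh7, Myh7b and Myh8. They were chosen by gene symbol, and all 8 were found among the 21401 symbols of each of 2 expression tables, one for C2C12 cells and one for gastrocnemius, the large calf muscle. The study treated cells and mice with lipopolysaccharide (LPS), a bacterial membrane component that provokes inflammation, with or without moringa isothiocyanate-1 (MIC-1), an isothiocyanate from Moringa oleifera seeds. RNA-seq had been made from 18 libraries, 3 for each of control, LPS and LPS-MIC-1 in each experiment.

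The cell libraries were labelled as wild-type C2C12 myoblasts, an established mouse line of muscle precursors. Their groups were a saline vehicle control, LPS at 1 μg/mL, and 1 μg/mL LPS with 10 μM MIC-1, treated for 24 h. The published methods give a range of MIC-1 concentrations with an ethanol vehicle for the cells, and the published text names a lower concentration than the labels for the sequenced ones. The muscle came from wild-type C57BL/6 male mice whose age the sources do not give. Control mice received a saline vehicle (10% DMSO in the published account), LPS mice received 10 mg/kg LPS into the abdominal cavity, and LPS-MIC-1 mice were given 80 mg/kg MIC-1 in 10% DMSO by gavage on each of 3 days before the same LPS dose. Tissue was taken 16 h after LPS. Neither experiment had a group with MIC-1 alone. Nothing states that the C2C12 replicates were separate cultures or that each muscle library came from 1 mouse, so p-values measure the spread between these libraries, which may be technical.

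A myosin heavy chain carries the motor that pulls on actin in the sarcomere, and the isoform a fiber holds sets much of its speed of shortening. Adult mouse limb muscle is built on the fast isoforms IIb (Myh4), IIx (Myh1) and IIa (Myh2) and the slow isoform I (Myh7), which is also the beta chain of the heart, while Myh6 is the cardiac alpha chain. Myh3 and Myh8 are the embryonic and perinatal chains of developing and regenerating muscle, and Myh7b is a slow-type relative found at low levels in several striated muscles. In the RefSeq gene order Myh3, Myh2, Myh1, Myh4 and Myh8 stand side by side in a single cluster, Myh6 and Myh7 form a neighboring pair, and Myh7b lies apart.

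All levels below are the deposited FPKM, a read density corrected for transcript length and library size, so that levels can be compared between genes. A share is the percentage of the summed FPKM of the 8 genes in a library. Differences between groups were tested with limma on log2(FPKM + 0.1) for genes with a mean above 1 FPKM over the 9 libraries of an experiment. Genes were called at a log2 fold change beyond 1 in size with a Benjamini-Hochberg adjusted p under 0.05 in muscle or 0.001 in the cells, the latter 2 limits following the study's methods. In muscle 4 of the 8 genes were tested (Myh1, Myh2, Myh4 and Myh7), and Myh7 passed the filter only through LPS-MIC-1. In the cells 1 of the 8 was tested (Myh3), again only through LPS-MIC-1. Shares were compared with an exact two-sided permutation test, whose smallest possible p for 3 against 3 libraries is 0.1.

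The labels were checked against cell type markers. Muscle libraries were dominated by fiber genes, with 15 markers summing to between 190541 and 271018 FPKM, and of 10 heart markers Nppb, Myl7 and Nkx2-5 were listed at 0 in all 9. The other heart markers, Myh6 included, stayed below 1 FPKM, except Actc1, an actin that immature skeletal muscle also makes, which held nearly all of the list's 1088 to 4107 FPKM. The muscle LPS-MIC-1 replicate 3 stood apart in its 11 macrophage markers, which summed to 192 FPKM against 36.5 and 39.3 in its group and 18.5 to 27.2 in the other 6 libraries. The libraries labelled C2C12 control and LPS went against their label. Their 10 myoblast markers summed to 1.08 to 4.58 FPKM, against 1109 to 1408 in LPS-MIC-1, while their 11 macrophage markers summed to 7207 to 10139 FPKM, against 79.9 to 274. Every difference between LPS-MIC-1 and the other C2C12-labelled libraries is therefore given as a difference between libraries. Whole-read steps among low values gave a relative depth, the reads behind a given FPKM, which is not the total of reads. It lay between 0.986 and 1.11 of the median in the muscle libraries. In the C2C12 libraries it lay between 0.548, in LPS-MIC-1 replicate 3, and 1.21.

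Gastrocnemius was a Myh4 tissue in every group. Myh4, the chain of the fastest fibers, was the 11th or 12th most abundant of all genes in each library and made up between 97.0 and 99.1% of the family's summed FPKM. Its level was 10657, 10017 and 10900.2 FPKM in the control libraries. With LPS it was 10908, 10696 and 11127, and with LPS-MIC-1 it was 11211.5, 10925 and 10630.4. The 3 groups overlapped. The log2 difference was 0.05 for LPS against control (95% interval -0.03 to 0.14, limma adjusted p = 0.378), 0.0014 for LPS-MIC-1 against LPS (-0.08 to 0.08, adjusted p = 0.978) and 0.05 for LPS-MIC-1 against control (-0.03 to 0.14, adjusted p = 0.233). The sign of the 2 differences from control depended on scaling, since quantile normalization gave -0.18 for both (limma adjusted p = 7.303e-06 for LPS and 5.555e-07 for LPS-MIC-1). That method sets each value by rank within its library, and Myh4 was 11th in each control library and 12th in all others. Rescaling each library to the same summed FPKM gave 0.13 for LPS-MIC-1 against LPS (adjusted p = 0.0129) and 0.21 against control (adjusted p = 0.00102). The difference between LPS and control was 0.0175 without control replicate 2.

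**Figure D1:**
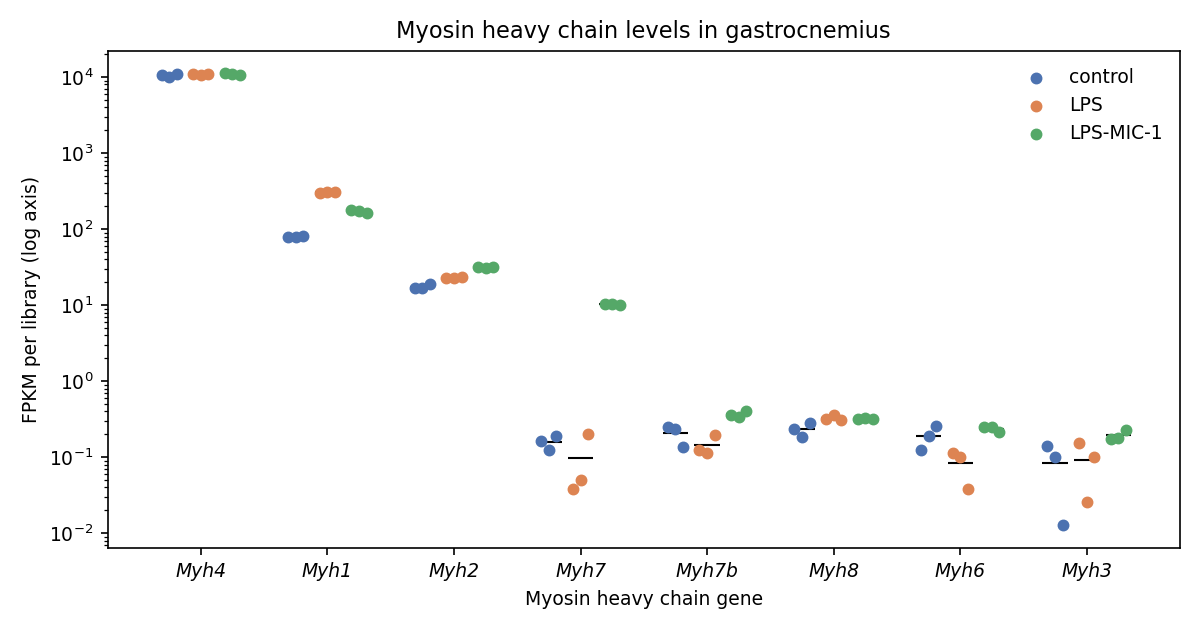
FPKM of the 8 myosin heavy chain genes in each gastrocnemius library, on a log axis, with 3 points a group and a line at the group mean. Myh4 stands near 10 to the power 4 in all groups, Myh1 is highest in LPS, Myh2 is highest in LPS-MIC-1, and Myh7 is near 10 FPKM in LPS-MIC-1 only.

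Below Myh4 the levels were in the order Myh1, Myh2 and then, in control and LPS muscle, 5 genes under 0.4 FPKM. In control muscle each of these 5 (Myh8, Myh7b, Myh6, Myh7 and Myh3) overlapped with the next in order. In LPS muscle Myh8 stood above the other 4, which overlapped. In LPS-MIC-1 muscle Myh7 took the fourth place, followed by Myh7b, Myh8, Myh6 and Myh3, of which only Myh6 and Myh3 overlapped.

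Of the 4 tested chains Myh1, the IIx chain, differed most between LPS and control. It was 77.7, 77.7 and 82.0 FPKM in control and 302, 311 and 305 in LPS. In LPS-MIC-1 it was 180, 173 and 164, so that every LPS library lay above every LPS-MIC-1 library and these lay above every control. The rise with LPS was 1.95 ± 0.0394 (SE) on the log2 scale, or 3.87-fold (limma adjusted p = 1.896e-07), and its rank among all genes by FPKM was 711 to 739 in control and 231 to 235 in LPS. On the same scale LPS-MIC-1 muscle was 1.12 above control (2.18-fold, adjusted p = 9.432e-08), which was called. It was below LPS muscle by a log2 difference of -0.83 (adjusted p = 6.160e-07), a step smaller than the fold limit and so not called.

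Myh2, the IIa chain, had a different order of groups. Its 3 control values were 16.9, 16.7 and 19.1 FPKM, its LPS values 22.7, 23.0 and 23.6, and its LPS-MIC-1 values 32.2, 31.2 and 31.7. No library of one group overlapped with another group, and control was lowest and LPS-MIC-1 highest. The log2 differences were 0.40 ± 0.0550 (SE) for LPS against control (adjusted p = 0.00222), 0.46 for LPS-MIC-1 against LPS (adjusted p = 0.000163) and 0.85 for LPS-MIC-1 against control (adjusted p = 3.646e-06). All 3 differences had limma adjusted p-values under 0.05 and none reached the fold limit. Rescaling each library to the same summed FPKM brought the last to 1.01 (adjusted p = 1.327e-06), past the fold limit.

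The adult slow chain Myh7 separated LPS-MIC-1 from both other groups. It was 0.162, 0.124 and 0.189 FPKM in control and 0.0378, 0.0505 and 0.200 in LPS, where whole-read steps put it at about 13, 10 and 15 reads and at about 3, 4 and 16 reads. In LPS-MIC-1 it was 10.3, 10.5 and 10.2 FPKM, about 840, 883 and 904 reads. Control and LPS overlapped, while the LPS-MIC-1 libraries lay far above both and close together. Myh7 rose by 5.82 ± 0.342 (SE) on the log2 scale against LPS (adjusted p = 2.157e-06) and by 5.34 against control (adjusted p = 3.422e-06). LPS against control gave -0.48 (95% interval -1.27 to 0.30, adjusted p = 0.393), which was -0.84 without LPS replicate 3 (adjusted p = 0.0877) and -0.27 without LPS replicate 1. The size depended on the pseudocount, and the difference from LPS was 3.37 with 1 FPKM added and 6.93 with 0.01 FPKM. Without the macrophage-rich replicate 3 it was 5.83 (adjusted p = 4.136e-05). More slow fibers and more Myh7 RNA in each fiber cannot be told apart in whole-muscle RNA, and the same holds for every level given here.

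In the comparison of LPS with control, 1 of the 4 tested myosin heavy chains was called (Myh1, higher), against 1.25% of the 9475 genes tested. In LPS-MIC-1 against LPS 1 of 4 was called (Myh7, higher), where 15.1% of genes were. In LPS-MIC-1 against control 2 of 4 were called (Myh1 and Myh7, both higher), where 15.5% were. Myh7 entered the test only through its LPS-MIC-1 values, so its calls say no more than those values. The LPS libraries are shared by the first 2 comparisons and the control libraries by the first and last, so the 3 sets of values are not independent.

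The shares restated the levels within the family, free of library scaling. Myh4 made up 99.1% ± 0.0273 (SD, n = 3) of the summed FPKM in control, 97.1% ± 0.0876 with LPS and 98.1% ± 0.0216 with LPS-MIC-1. Myh1 made up 0.745% ± 0.0227, 2.72% ± 0.0861 and 1.55% ± 0.0293 in the same order. Myh2 made up 0.165% ± 0.00809, 0.205% ± 0.00328 and 0.285% ± 0.00669. For these 3 genes no library of one group overlapped with another, and each of the 9 differences had an exact permutation p of 0.1, the smallest possible. The Myh4 share was thus lower by 2.02 percentage points in LPS than in control and higher by 1.00 points in LPS-MIC-1 than in LPS.

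**Figure D2:**
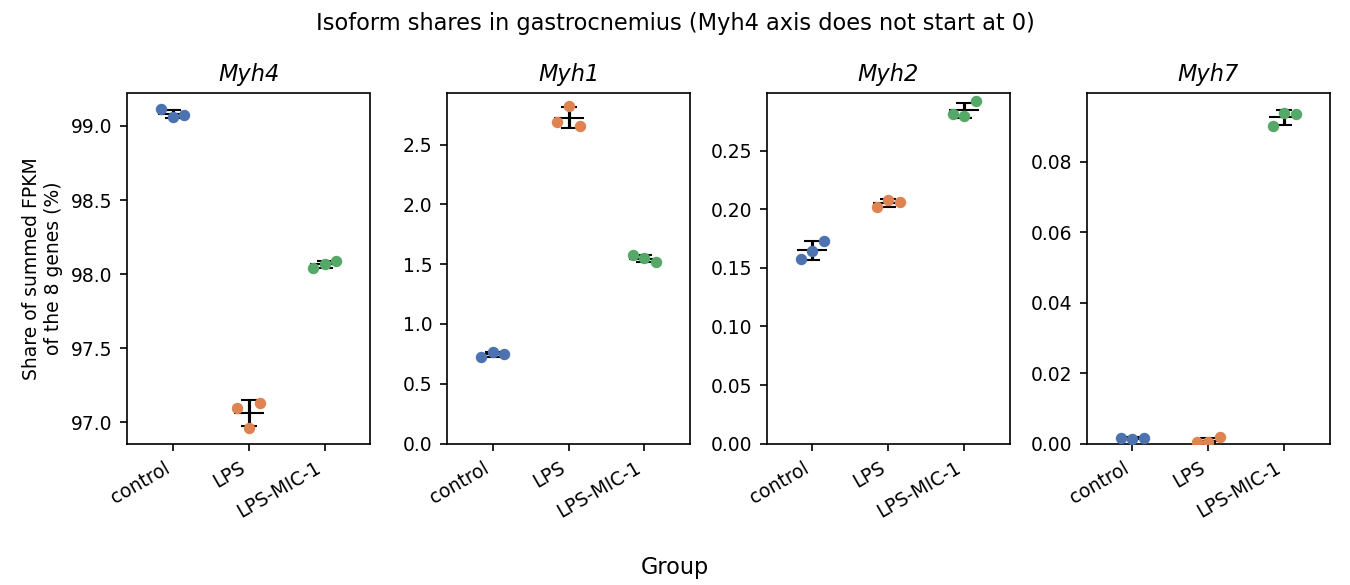
Share of the summed FPKM of the 8 myosin heavy chain genes taken by Myh4, Myh1, Myh2 and Myh7 in each gastrocnemius library, in percent, with points for libraries and bars for the mean ± SD of 3. The Myh4 panel runs from about 97 to 99% and does not start at 0, and the Myh1 panel mirrors it with LPS highest.

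Among the fast chains the ratio of Myh4 to Myh1 was 133 ± 4.09 (SD, n = 3) in control, 35.6 ± 1.14 with LPS and 63.4 ± 1.22 with LPS-MIC-1. The ratio of Myh1 to Myh2 was 4.52 ± 0.194, 13.3 ± 0.324 and 5.44 ± 0.218. With Myh4 left out, the 7 other genes summed to between 95.2 and 102 FPKM in control, between 326 and 335 with LPS and between 207 and 224 with LPS-MIC-1. Within that remainder Myh1 took 81.1% in control, 92.8% with LPS and 80.0% with LPS-MIC-1, Myh2 took 18.0%, 6.996% and 14.7%, and Myh7 took 0.162%, 0.0292% and 4.79%. The non-IIb portion of LPS-MIC-1 muscle was thus close to control in its Myh1 share and held a larger Myh7 share than either other group.

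Summed over the 8 genes, the level was 10622 ± 459 FPKM (SD, n = 3) in control, 11240.3 ± 213 with LPS and 11138 ± 299 with LPS-MIC-1, and it made up 1.37 to 1.49%, 1.51 to 1.60% and 1.66 to 1.71% of all FPKM in a library. The 3 LPS sums lay above the control sums, and the LPS-MIC-1 sums overlapped with both.

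Myh7b, Myh8, Myh6 and Myh3 were below the filter in muscle. Myh7b was 0.247, 0.233 and 0.137 FPKM in control, 0.124, 0.112 and 0.198 in LPS, and 0.364, 0.340 and 0.411 in LPS-MIC-1, whose libraries lay above all others. When no filter was applied, Myh7b was 0.96 higher in LPS-MIC-1 than in LPS on the log2 scale (limma adjusted p = 0.0105), under the fold limit. Its difference from control was 0.64 in LPS-MIC-1 (adjusted p = 0.0539) and -0.32 in LPS (adjusted p = 0.492). Myh6, the cardiac alpha chain, was 0.126, 0.188 and 0.254 FPKM in control, 0.114, 0.102 and 0.0378 in LPS, and 0.248, 0.251 and 0.215 in LPS-MIC-1. LPS was lowest without overlap, and the unfiltered difference between LPS-MIC-1 and LPS was 0.90 (adjusted p = 0.0195). The unfiltered difference of Myh6 from control was -0.65 in LPS (limma adjusted p = 0.168) and 0.25 in LPS-MIC-1 (adjusted p = 0.471). In whole-read steps Myh6 was at about 10, 15 and 20 reads in control, 9, 8 and 3 in LPS, and 20, 21 and 19 in LPS-MIC-1.

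The developmental chains were scarce in adult muscle. Myh8 lay between 0.184 and 0.285 FPKM in control, between 0.308 and 0.361 with LPS and between 0.315 and 0.327 with LPS-MIC-1, and the last 2 groups overlapped. Myh3 lay between 0.0127 and 0.139, between 0.0256 and 0.153 and between 0.174 and 0.228, with whole-read steps of 1 to 11, 2 to 12 and 14 to 20 reads. Counting all 8 genes, 4 did not overlap between LPS and control, 6 did not between LPS-MIC-1 and LPS, and 6 did not between LPS-MIC-1 and control. The same held for 36.5%, 64.2% and 64.6% of the genes tested, among which 4 of the 8 are not, being below the filter.

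Most slow-fiber partners were higher where Myh7 was higher. Of 10 slow-fiber genes, most of which encode slow isoforms of light chains, troponins, tropomyosin and calcium handling proteins, 8 rose and 1 fell in LPS-MIC-1 against LPS. Of the 10, Myl2, Tnnt1 and Tnni1 passed the filter only through LPS-MIC-1, so their calls say no more than their values there. Of the 7 others 5 rose and 1 fell, where 15.1% of all genes tested were called. Their median log2 difference was 1.58 beside -0.01 over all genes tested. Myl2, the slow regulatory light chain, was 0.459, 0.309 and 0.304 FPKM with LPS and 54.1, 45.9 and 47.8 with LPS-MIC-1 (log2 difference 6.77, limma adjusted p = 4.245e-08). The slow troponins Tnnt1 and Tnni1 rose by 6.28 (adjusted p = 0.000609) and 5.56 (adjusted p = 3.444e-06), and Tnnt1 was listed at 0 in 2 of the 3 LPS libraries. Casq2, the slow and cardiac calsequestrin, was the 1 gene that fell, at -1.77, and was named after its value was seen.

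In LPS against control 2 slow partners were higher and 2 lower, where 1.25% of all genes tested were called. Their median was -0.32 beside 0.01 over all genes. The lower ones, Myl2 and Tnni1, fell by 1.05 and 1.68 on the log2 scale, and were tested only through their LPS-MIC-1 values. Of the 7 partners that did not depend on LPS-MIC-1 for the filter, 2 were higher and 0 lower, with a median of -0.08. Mybpc1, the slow myosin-binding protein C, rose by 1.183, from 18.2 ± 0.503 FPKM (SD, n = 3) to 41.5 ± 0.706, and stood at 124 ± 5.34 in LPS-MIC-1. The other gene that rose was Myoz2, at 1.36, named after its value was seen. In LPS-MIC-1 against control 6 of the 7 that did not depend on LPS-MIC-1 for the filter were higher and 1 was lower. Their median was 2.06, and 15.5% of all genes tested were called in this comparison.

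**Figure D3:**
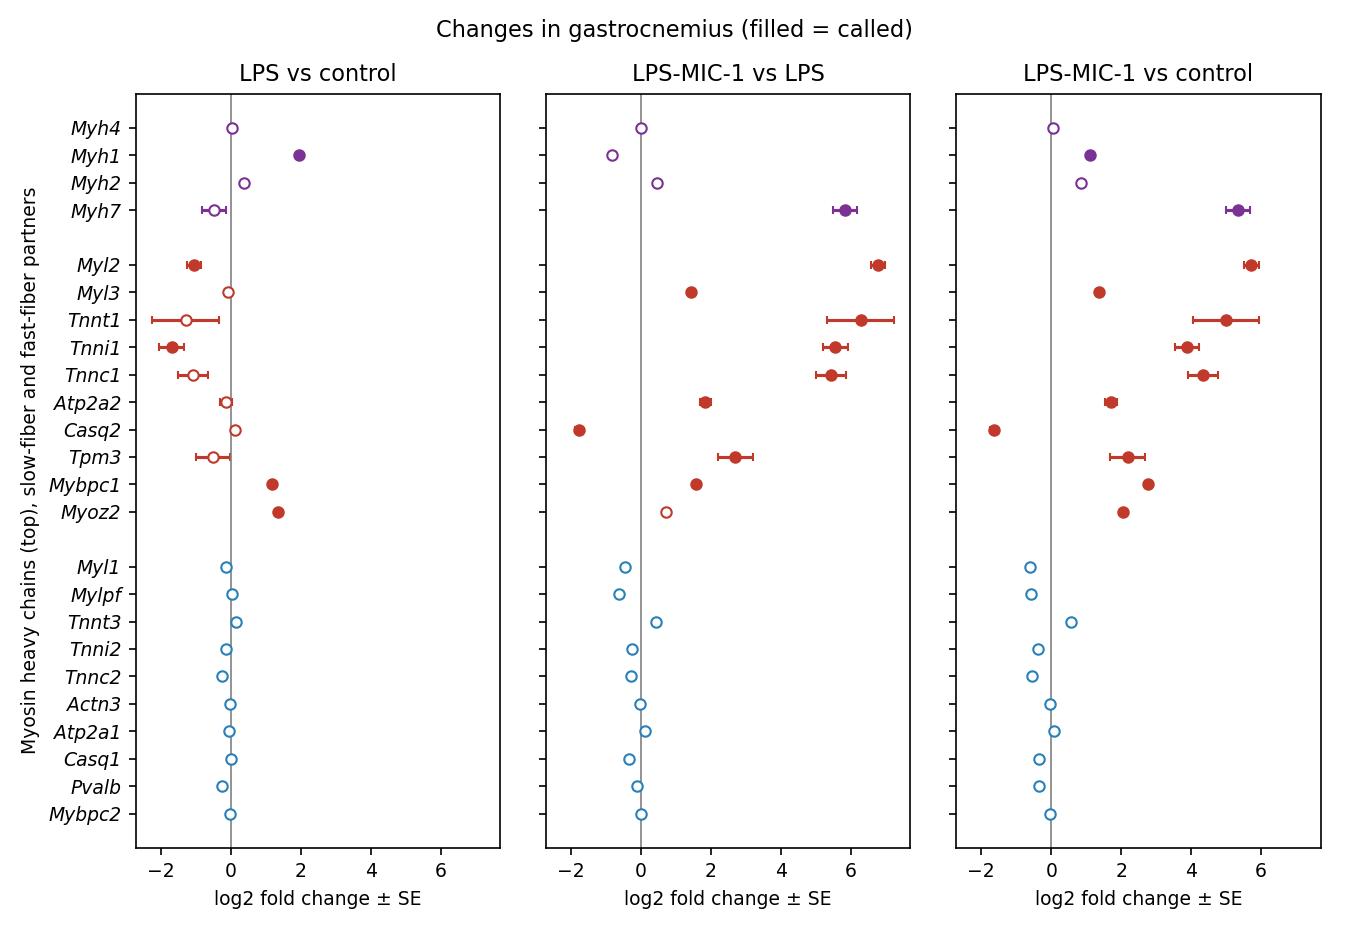
Log2 fold change ± SE in gastrocnemius for the 4 tested myosin heavy chains (purple), 10 slow-fiber partners (red) and 10 fast-fiber partners (blue) in the 3 comparisons, with filled points for called genes. In both LPS-MIC-1 panels Myh7 and most slow partners lie right of 0 and Casq2 lies left, while the fast partners and Myh4 stay within 1 of it.

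None of 10 fast-fiber partners was called in any comparison, with medians of -0.04, -0.18 and -0.35. Of all genes tested 1.25% were called in LPS against control, 15.1% in LPS-MIC-1 against LPS and 15.5% in LPS-MIC-1 against control. Not all of the fast partners missed the p limit. Myl1, the fast essential light chain and the most abundant of them, was 38154 ± 1246 FPKM (SD, n = 3) in control, 34499 ± 1080 with LPS and 25148 ± 1648 with LPS-MIC-1 (log2 difference -0.46 from LPS, adjusted p = 7.860e-05).

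The 4 tested heavy chains of smooth muscle and non-muscle cells (Myh9, Myh10, Myh11 and Myh14) gave no call in muscle. Myh9, the non-muscle IIA chain, was closest, at 5.55 ± 0.202 FPKM with LPS and 11.1 ± 0.744 with LPS-MIC-1 (0.99, adjusted p = 3.632e-06). Myh13, the extraocular chain next to Myh8, stayed below 0.3 FPKM, and Myh15 was listed at 0 in 8 of 9 libraries. The microRNA genes inside Myh6, Myh7 and Myh7b (Mir208a, Mir208b and Mir499) were listed at 0 in all 9 libraries.

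In a list of 7 genes drawn up for myosin ubiquitin ligases and turnover, 2 rose in LPS-MIC-1 against both other groups. Of all genes tested 15.1% were called against LPS and 15.5% against control. Trim63 (MuRF1), a ubiquitin ligase that acts on myosin heavy chain, was 88.7 ± 0.503 FPKM (SD, n = 3) in control, 78.9 ± 4.68 with LPS and 2263 ± 58.5 with LPS-MIC-1, a log2 difference of 4.84 from LPS (limma adjusted p = 7.470e-11). Fbxo32 (atrogin-1) was 33.5 ± 0.115, 21.9 ± 0.791 and 225 ± 8.08 FPKM (3.35, adjusted p = 4.208e-10). Of these 7 genes, none was called in LPS against control, where 1.25% of all genes tested were.

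Of 9 tested genes for myosin folding and thick filament assembly, Hspb1 rose and Mybph fell in LPS-MIC-1 against LPS and against control. Of all genes tested 15.1% and 15.5% were called in these comparisons. Hspb1, a small heat shock protein, went from 432 ± 6.15 FPKM in LPS to 2973 ± 203 (log2 difference 2.78, adjusted p = 3.585e-09), and Mybph, a myosin-binding protein, from 591 ± 6.62 to 181 ± 12.3 (-1.71, adjusted p = 5.580e-08).

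In LPS against control, where 1.25% of all genes tested were called, 1 of 17 tested regulators of myosin genes was higher. This was Myog, a factor of muscle differentiation named after its value was seen, at 6.54 ± 0.193 and 16.5 ± 0.990 FPKM (1.32, limma adjusted p = 9.433e-06). The regulators gave 1 higher and 3 lower calls when LPS-MIC-1 was set against LPS, where 15.1% of all genes tested were called. Myod1, a myogenic factor enriched in fast fibers, was 33.9 ± 0.617 FPKM with LPS and 4.72 ± 0.534 with LPS-MIC-1 (-2.82, adjusted p = 6.310e-08). The 2 others, named after their values were seen, were Six4 and Ppargc1a at -1.27 and -1.22, and the higher one was Mef2a at 1.69 (adjusted p = 0.0327), whose LPS values ranged widely, from 1.23 to 8.66 FPKM. In LPS-MIC-1 against control 3 regulators were higher (Eya4 and, named after their values were seen, Sox6 and Vgll2) and 2 lower (Myod1 and Eya1). Of all genes tested 15.5% were called in this comparison. Actc1, the cardiac actin of immature muscle and 1 of 3 tested developmental partners, was 2834 ± 59.9, 4057 ± 53.2 and 1140 ± 58.7 FPKM in the 3 groups (-1.83 in LPS-MIC-1 against LPS, adjusted p = 4.334e-09). Tnnt2, the cardiac and embryonic troponin T of the same list, was 1.27 ± 0.419, 0.750 ± 0.0768 and 2.26 ± 0.394 FPKM (1.46, adjusted p = 0.00142), so that 1 of the 3 was higher and 1 lower.

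Markers of other cell types differed between the groups beside these results. Neutrophil markers summed to 1.76 to 2.74 FPKM in control, 1.76 to 2.02 with LPS and 11.2 to 17.2 with LPS-MIC-1. Of 6 macrophage markers that did not depend on LPS-MIC-1 for the filter, 2 rose against both other groups (Fcer1g and Cd52, named after their values were seen). Smooth muscle markers summed to 82.8 to 88.1, 67.1 to 71.3 and 39.3 to 42.5 FPKM without overlap, and of 4 tested Acta2 fell against LPS, and Acta2 and Smtn against control. Endothelial markers summed to 77.1 to 81.7, 49.6 to 51.4 and 54.1 to 59.4 FPKM, and of 5 tested Kdr fell against control. Fiber markers summed to 263510 to 271018, 250362 to 256226 and 190541 to 204272 FPKM, with 0 of 15 called. Of all genes tested 1.25% were called in LPS against control, 15.1% in LPS-MIC-1 against LPS and 15.5% in LPS-MIC-1 against control. The part of these markers in the myosin differences was not tested. Without replicate 3 of LPS-MIC-1, the library with the most macrophage markers, the count of called heavy chains was 1 against LPS and 2 against control, as with it.

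Genes with the most similar pattern were sought over the 9 muscle libraries, by Pearson's r of log2(FPKM + 0.1) with the other 9474 tested genes. These values describe libraries that share their 3 groups, so r is high wherever 2 genes order the groups alike. Myh1 was closest to Mb, the oxygen store myoglobin (r = 0.986), followed by Rab10 and Ghitm (both 0.975). Myh2 was closest to Stt3b (0.997), Il6st (0.996) and Mstn, which encodes the growth inhibitor myostatin (0.993). Myh7 was closest to Sh2d5 (0.999), Fxyd6 (0.997) and Tmem140 (0.997). The nearest genes to Myh4, whose groups overlapped, were Pcmtd2 (0.954), Wdr41 (0.947) and Gtpbp2 (0.918).

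In the libraries labelled C2C12 the whole family was at low levels. The sum was 1.80 ± 0.420 FPKM (SD, n = 3) in control, 0.388 ± 0.124 with LPS and 8.84 ± 0.617 with LPS-MIC-1, far below the sums in muscle. Different genes made up the sum, with Myh7b leading in the libraries labelled control and LPS, and Myh3 leading in LPS-MIC-1.

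Myh3, the embryonic chain that is among the first made when myoblasts differentiate, was 0.0685, 0.0509 and 0.0839 FPKM in control and 0.0204, 0.0204 and 0.101 in LPS. In whole-read steps these were about 4, 3 and 5 and about 1, 1 and 5 reads. In LPS-MIC-1 Myh3 was 6.03, 6.68 and 5.93 FPKM, or about 252, 344 and 161 reads. The first 2 groups overlapped and LPS-MIC-1 lay above both. LPS-MIC-1 was higher than LPS by 5.46 ± 0.221 (SE) on the log2 scale (limma adjusted p = 9.478e-08) and higher than control by 5.24 (adjusted p = 1.278e-07), and both were called. LPS against control was -0.23 (95% interval -0.74 to 0.28, adjusted p = 0.407), which was -0.47 without LPS replicate 3 (adjusted p = 0.0329) and -0.10 without LPS replicate 1 or 2. With 1 FPKM added in place of 0.1 the difference from LPS was 2.78, and with 0.01 FPKM it was 7.05. Without LPS-MIC-1 replicate 1, the library of its group with the most macrophage markers, it was 5.48.

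Myh3, which entered the test only through its LPS-MIC-1 values, was called in LPS-MIC-1 against LPS, where 49.9% of 10877 genes were called, and in LPS-MIC-1 against control, where 43.3% were. In LPS against control 0 of 1 was called, where 20.9% were, and its unadjusted limma p was 0.335. The groups also differed in their macrophage and myoblast markers as given above. The part of this difference in the myosin values was not tested.

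**Figure D4:**
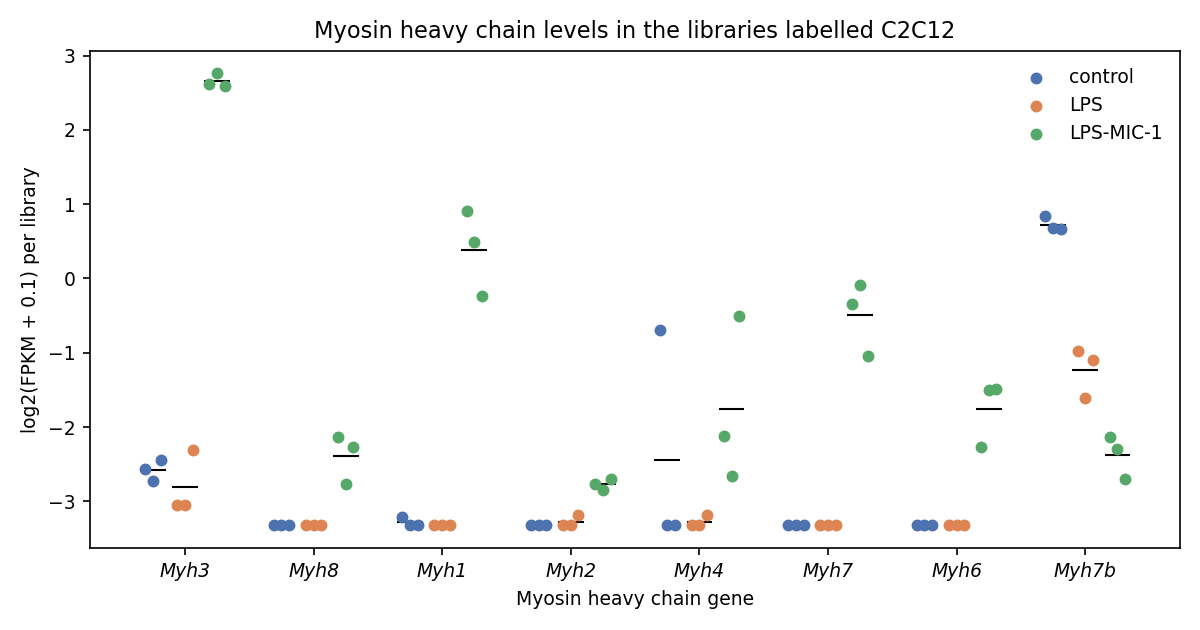
Log2(FPKM + 0.1) of the 8 myosin heavy chain genes in each library labelled C2C12, with 3 points a group and a line at the mean, so that a library listed at 0 lies at the bottom. Myh3, Myh1, Myh7 and Myh6 stand apart in LPS-MIC-1, and Myh7b is highest in control and lowest in LPS-MIC-1.

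Myh7b had the opposite order of groups. It was 1.69, 1.499 and 1.48 FPKM in the libraries labelled control, 0.407, 0.229 and 0.365 in those labelled LPS, and 0.129, 0.105 and 0.0541 in LPS-MIC-1. The 3 groups did not overlap. In whole-read steps these were about 202, 181 and 181 reads, then 41, 23 and 37, then 11, 11 and 3. Myh7b was below the filter, since its mean over the 9 libraries was under 1 FPKM. With no filter it was lower in LPS than in control by a log2 difference of -1.96 (limma adjusted p = 0.000152) and in LPS-MIC-1 than in control by -3.10 (adjusted p = 4.054e-06), both past the limits, and in LPS-MIC-1 than in LPS by -1.14 (adjusted p = 0.00181), which missed the p limit.

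The adult and cardiac chains appeared almost only in LPS-MIC-1. Myh1 was 1.78, 1.31 and 0.748 FPKM there, was listed at 0.00845 in control replicate 1 and was listed at 0 in the 5 other libraries. Myh7 was 0.686, 0.838 and 0.384 FPKM, and Myh6 was 0.107, 0.252 and 0.258, and both were listed at 0 in all 6 control and LPS libraries. Without the filter on the mean, a gene still needed a value above 0 in at least 3 libraries. Myh1, Myh7 and Myh6 met this only through LPS-MIC-1. They then passed both limits in each comparison with LPS-MIC-1, which says no more than their values there. Their levels in LPS-MIC-1 stayed below 2 FPKM. The library with the lowest relative depth, replicate 3, had the lowest Myh1 and Myh7 and the highest Myh6.

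Myh8, Myh2 and Myh4 were at trace levels. Myh8, the perinatal chain, was 0.128, 0.0474 and 0.108 FPKM in LPS-MIC-1, about 11, 5 and 6 reads, and was listed at 0 elsewhere. Myh2 was between 0.0383 and 0.0546 FPKM in LPS-MIC-1, about 3 to 4 reads, and at about 1 read in LPS replicate 3. Myh4, the chief chain of the calf, was 0.519 FPKM in control replicate 1, about 61 reads, and was listed at 0 in the 2 other control libraries. Myh4 was 0.131, 0.0580 and 0.605 FPKM in LPS-MIC-1 and at most 0.01003 in LPS, so that control and LPS-MIC-1 overlapped. Control replicate 1 also stood apart in fast-fiber genes, with Myl1 at 1.68, Pvalb at 1.42 and Tnnt3 at 0.592 FPKM, each listed at 0 in the 2 other control libraries, and the part of this in its Myh4 value was not tested. Pvalb was named after its value was seen. Counting all 8 genes, 1 did not overlap between LPS and control (Myh7b), 8 did not between LPS-MIC-1 and LPS, and 7 did not between LPS-MIC-1 and control (all but Myh4). The same held for 79.4%, 85.5% and 83.0% of the genes tested, among which 7 of the 8 are not, being below the filter.

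By share, Myh7b made up 88.4% ± 12.6 (SD, n = 3) of the family in control, 87.4% ± 10.8 with LPS and 1.07% ± 0.381 with LPS-MIC-1. Myh3 made up 3.88% ± 1.29, 11.2% ± 8.44 and 70.4% ± 3.26. The other portions of LPS-MIC-1 were 14.3% ± 5.27 for Myh1, 7.09% ± 2.18 for Myh7, 3.17% ± 3.72 for Myh4, 2.35% ± 1.04 for Myh6, 1.08% for Myh8 and 0.534% ± 0.130 for Myh2. The Myh3 and Myh7b shares of LPS-MIC-1 did not overlap with those of either other group, and their differences had the smallest possible exact permutation p, 0.1. The Myh7b share of control and LPS overlapped (difference -1.04 percentage points, exact permutation p = 0.8). In sums this low 1 library could move a share, as Myh4 took 22.7% of the family in control replicate 1 and 0 in the other two.

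**Figure D5:**
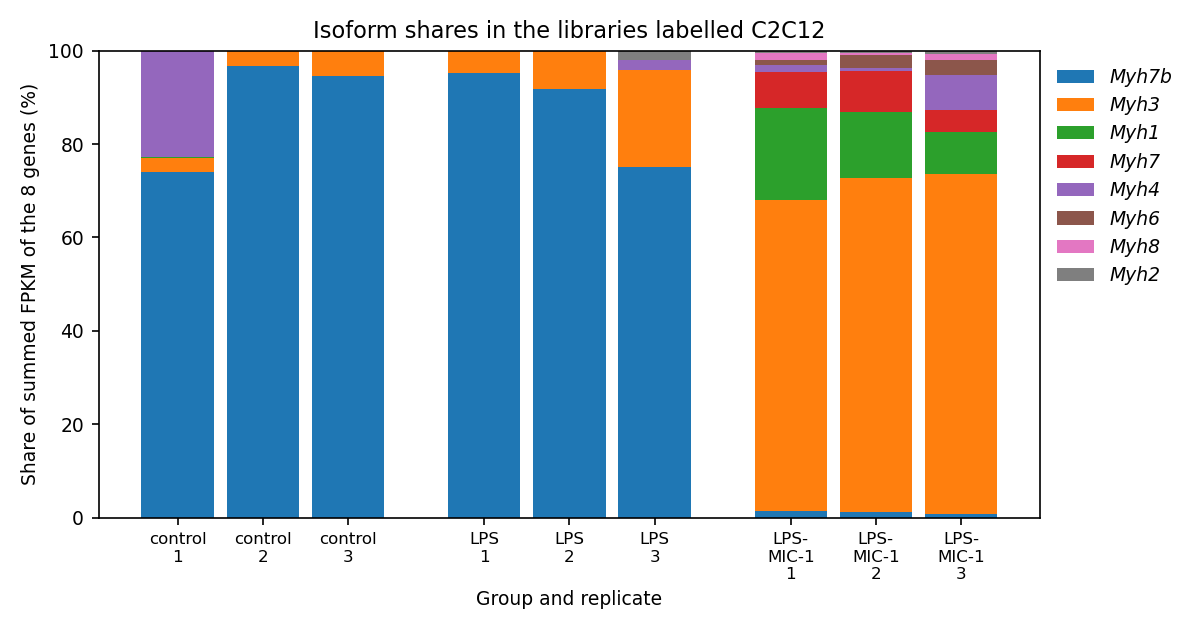
Share of the summed FPKM of the 8 myosin heavy chain genes in each library labelled C2C12, in percent, stacked by gene. Myh7b fills most of the 6 control and LPS bars, with Myh4 at 22.7% in control replicate 1, and Myh3 fills 66.7 to 72.8% of the LPS-MIC-1 bars.

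Most partners in the C2C12-labelled libraries passed the filter only through LPS-MIC-1, so that they had to be higher there and their counts are no result. This held for 6 of 8 tested fast-fiber partners, 5 of 7 slow, 4 of 4 developmental, 5 of 6 folding and assembly, 3 of 4 turnover and 7 of 11 regulator genes. Among them Myl1 was 160, 196 and 214 FPKM in LPS-MIC-1 and at most 0.0939 in the libraries labelled LPS. Tnni1 was 70.9, 89.2 and 98.1 FPKM against at most 0.140. Chrng, the fetal acetylcholine receptor subunit, was 36.9, 37.2 and 38.1 FPKM and was listed at 0 in all 6 control and LPS libraries. These stood far above Myh3, the most abundant of the 8 heavy chains in LPS-MIC-1.

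Of the genes that did not depend on LPS-MIC-1 for the filter, both fast partners (Mylpf and, named after its value was seen, Tnni2), 1 of 2 slow partners (Tnnc1) and the 1 folding gene (Hsp90aa1) were higher in LPS-MIC-1 than in LPS. The 1 turnover gene (Trim32) was not called, and of 4 regulators 2 were lower (Mef2d and, named after its value was seen, Nfatc1). Of all genes tested 49.9% were called in this comparison. Myod1 and Myog, which drive the differentiation of myoblasts, were 56.7, 49.5 and 55.7 FPKM and 23.6, 25.7 and 34.3 FPKM in LPS-MIC-1 and stayed below 0.1 in the libraries labelled LPS. In LPS against control 1 fast partner was lower (Tnni2) and 1 slow partner was higher (Tnnc1). Among the developmental, folding, turnover and regulator lists 0 genes were called. Of all genes tested 20.9% were called in this comparison. Of the non-muscle heavy chains Myh10 was 0.248 ± 0.0346 FPKM (SD, n = 3) with LPS and 8.01 ± 0.768 with LPS-MIC-1, through which alone it passed the filter. Myh9 was 84.99, 84.4 and 81.9 FPKM with LPS and 148, 148 and 119 with LPS-MIC-1 (0.71, adjusted p = 5.515e-05) and was not called, and its level exceeded the summed FPKM of the 8 striated genes in each of the 9 libraries. The nearest genes to Myh3 over the 9 libraries were Mrc2, Lbh and Angptl2, each with r = 0.999, a pattern shared with the many genes that separate LPS-MIC-1 from the rest.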

How the data were processed

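The authors pseudoaligned RNA-seq reads with kallisto, imported them with tximport and deposited FPKM in 1 table per experiment, and the submitters' notes name mm9. Median-ratio size factors of the values were 1.015 in all 9 C2C12 and 1.006 in all 9 muscle libraries, so each table was already on a common scale. The muscle file also held 11 unnamed columns, 9 of them of per-sample values, which were not used, nor were the authors' 6 tables of DESeq2 fold changes and p-values. Groups came from the labels. Each experiment was fitted apart with limma 3.58.1 in R 4.3.3, on log2(FPKM + 0.1) with group means and eBayes with a trend, and p-values were Benjamini-Hochberg adjusted over all genes with a mean above 1 FPKM. The fit was tested on simulated data. A fold change on this scale understates that of low genes.

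Total depth is not stated. The FPKM of genes seen in at most 3 libraries stepped by whole-number ratios, which gave relative depths on the scale of the deposited values. The smallest whole numbers within 0.15 (multiples under 30) gave approximate reads where they existed. kallisto divides reads shared by similar transcripts, so reads of related heavy chains may be split. The RefSeq gene order is from another build, so no coordinates are printed.

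The genes and lists were chosen with earlier results of these data known. Besides the 8 genes, the text names the genes of lists of up to 7, of longer lists the 3 largest called changes per experiment and the 2 most abundant, and the 3 genes most like each tested gene. Alternatives covered the pseudocount, the filter, scaling, the eBayes trend, the libraries fitted, a replicate block and each library left out. Plots used matplotlib 3.10.9 and Python 3.11.15.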

Additional observations from a re-analysis of the deposited data

Results flagged for a closer look

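For 2 genes the libraries of 1 group all moved one way in the C2C12-labelled experiment and the opposite way in muscle. The mean Myh1 level of LPS-MIC-1 minus LPS was 1.28 FPKM in the C2C12-labelled libraries and -134 FPKM in muscle. The mean Myh7b level of LPS-MIC-1 minus LPS was -0.238 FPKM in the C2C12-labelled libraries and 0.227 FPKM in muscle, and that of LPS-MIC-1 minus control was -1.46 and 0.166 FPKM. In each case the 3 libraries of one group did not overlap with those of the other, in either experiment. The difference between the experiments was not tested, because the tables were made apart and the doses, routes and times differ. The C2C12-labelled control and LPS libraries held macrophage markers at 7207 to 10139 FPKM, against 79.9 to 274 in LPS-MIC-1. Their myoblast markers were at 1.08 to 4.58 FPKM, against 1109 to 1408. The C2C12 side is thus a difference between libraries, and the part of these markers in it was not tested. Groups of 3 are too small to test for a single far library.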

How the results depend on the processing

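The 15 log2 fold changes of tested heavy chains were recomputed 279 times under the alternatives. Of these, 274 neither changed sign nor were called where they had not been or the reverse, 1 became called (Myh2 in muscle LPS-MIC-1 against control, called when libraries were rescaled to equal summed FPKM) and 4 changed sign, all of Myh4, at -0.18 under quantile normalization in both muscle comparisons with control and, in LPS-MIC-1 against LPS, -0.013 without LPS replicate 2 and -0.018 without LPS-MIC-1 replicate 1 (range over left-out libraries -0.018 to 0.021). The 274 include Myh4 at 0 in LPS-MIC-1 against LPS under quantile normalization and 2 Myh4 values whose adjusted p alone passed 0.05 when rescaled to equal sums. Without the filter on the mean, 1 of the 8 heavy chains was called in the C2C12 comparison of LPS with control, in place of 0. In LPS-MIC-1 against LPS 4 were called, and in LPS-MIC-1 against control 5, in place of 1 and 1. Of these, Myh1, Myh6 and Myh7 were tested only through their LPS-MIC-1 values. Of the 15296 genes then tested, 1285 were higher and 1137 lower in the first of these comparisons. The counts were 3726 and 2996 in the second and 3449 and 2583 in the third. With a mean above 5 FPKM required, 0 and 0 were called in the last 2, and in muscle 0 in LPS-MIC-1 against LPS, in place of 1, and 1 against control, in place of 2, because Myh3 and Myh7 were then not tested. Leaving out any 1 library gave the same counts of called heavy chains.

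The Myh4 share of the C2C12-labelled libraries rested on control replicate 1. Without it the difference was 0.688 points for LPS against control (range over left-out libraries -10.7 to 0.688) and 3.17 for LPS-MIC-1 against control (-8.18 to 3.17), in place of -6.88 and -4.40. The summed FPKM in muscle depended on scaling, with -1172 for LPS and -1295 for LPS-MIC-1 against control under quantile normalization, in place of 618 and 516. For LPS-MIC-1 against LPS it was 1304 rescaled to equal sums, in place of -102, and between -251 and 47.7 with a library left out (5.51 without LPS replicate 3, 47.7 without LPS-MIC-1 replicate 3). Rescaling to equal sums moved the median of all genes by -0.30 and -0.37 in the C2C12 comparisons of LPS and LPS-MIC-1 with control and by 0.13 and 0.15 in the muscle comparisons of LPS-MIC-1 with LPS and control, and quantile normalization moved the last 2 by -0.11 and -0.12. The cause of these changes was not tested.

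Rescaling to equal sums gave 794 higher and 1872 lower genes in the C2C12 comparison of LPS with control, in place of 1182 and 1093, and 1743 and 3206 in that of LPS-MIC-1 with control, in place of 2300 and 2408, where a mean above 5 FPKM gave 1533 and 1867. In muscle LPS against control (62 higher and 56 lower), adding 1 FPKM gave 37 and 34, a mean above 5 FPKM gave 31 and 26, and no filter gave 85 and 88. For LPS-MIC-1 against LPS (916 and 515) the split was 766 and 680 under quantile normalization, 730 and 275 with 1 FPKM added, 452 and 204 above 5 FPKM and 1360 and 798 without the filter. For LPS-MIC-1 against control (884 and 580) it was 1155 and 457 rescaled to equal sums, 728 and 341 with 1 FPKM added, 462 and 215 above 5 FPKM and 1325 and 915 without the filter.

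No clear pairing by the shared replicate numbers was seen, and 3 libraries a group are too few to settle it. Deviations of same-numbered libraries correlated between -0.0757 and 0.0573 in C2C12 and between -0.0540 and 0.0823 in muscle, and 2 of 9 and 5 of 9 libraries were closest to one of their own number. With a replicate block the called heavy chains were the same, and the log2 difference of Myh7 between LPS-MIC-1 and LPS in muscle was 5.82 (limma adjusted p = 3.404e-05).

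Values under about 0.2 FPKM came from few reads, and their counting error is not known.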
